A study of Mus musculus with 6 samples.

Results

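The genes described here encode 9 proteins and enzymes of mature oligodendrocytes and their myelin: Mag, Mog, Mobp, Mbp, Cnp, Cldn11, Mal, Tspan2 and Ugt8a. They were taken as all gene spots named for one of these genes, with the older name Cnp1 for Cnp, or whose accession maps to it, which gave 18 probes. All 9 passed the filter on dim probes, among 18062 genes tested of 28786 gene names on the array; Mog passed it through its 2 differentiating KO samples alone, being well above background in no other sample, so its KO values had to be high and it is left out of the counts where this matters. Each of 6 arrays with 2 colours compared Dnmt3a-null (KO) with wild-type (WT) neural stem cell cultures, grown from dissected lateral ventricle walls (subventricular zone) of mice aged postnatal day 14 to 21. The differentiating KO and WT cells (2 arrays) had been replated with mitogen for 2 days and then kept without it for 3 days. The proliferating KO and WT cells (4 arrays) were kept in FGF-2 and EGF at 10 ng/ml each and harvested after a few passages. Dnmt3a is a de novo DNA methyltransferase. How the null allele was made, the mouse strain, and whether animals were pooled are unstated in the labels.

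Oligodendrocytes wrap axons in myelin, a stack of membrane made of lipids and a small set of abundant proteins. In the subventricular zone, neural stem cells give rise to neurons, astrocytes and oligodendrocyte precursors, and the myelin genes are switched on late, once a precursor leaves the cell cycle and matures. Withdrawal of mitogens from cultured stem cells starts differentiation along all of these lineages. In such mixed cultures a higher signal per culture can come from more cells of a type or from more RNA per cell, and the arrays cannot tell these apart.

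The start regions of these genes are shown because the genes moved together on these arrays, and letters that oligodendrocyte factors of the SOX and MYRF families are known to bind can be looked for in them. RefSeq promoter windows on build GRCm38.p6 were matched by symbol for 8 of the 9 genes (all but Mbp), and the 250 bases before the annotated start were read on the gene's strand. The letters searched on both strands were AACAAT and ACAAAG (SOX type), CTGGCAC and CTGGTAC (MYRF type) and CANNTG (E-box), and no 2 matches overlapped in these windows. Capitals mark SOX-type and MYRF-type matches, and the windows run from 5′ to 3′. The first 4 are all the windows that hold a SOX-type or MYRF-type match, and that of Tspan2, which rose in differentiating KO cells, is shown as one that holds neither.
Mag (chr7:30914923-30915172, minus strand): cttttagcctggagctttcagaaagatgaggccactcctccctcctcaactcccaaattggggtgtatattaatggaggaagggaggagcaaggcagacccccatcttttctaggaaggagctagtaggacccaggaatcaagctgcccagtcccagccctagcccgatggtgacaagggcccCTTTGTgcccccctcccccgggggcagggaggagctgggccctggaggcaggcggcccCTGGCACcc
Mobp (chr9:120149492-120149741, plus strand): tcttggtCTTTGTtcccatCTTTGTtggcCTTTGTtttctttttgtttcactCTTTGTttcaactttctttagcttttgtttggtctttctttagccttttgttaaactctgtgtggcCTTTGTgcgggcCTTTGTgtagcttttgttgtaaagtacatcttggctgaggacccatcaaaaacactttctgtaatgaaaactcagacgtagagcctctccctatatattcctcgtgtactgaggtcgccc
Cnp (chr11:100574689-100574938, plus strand): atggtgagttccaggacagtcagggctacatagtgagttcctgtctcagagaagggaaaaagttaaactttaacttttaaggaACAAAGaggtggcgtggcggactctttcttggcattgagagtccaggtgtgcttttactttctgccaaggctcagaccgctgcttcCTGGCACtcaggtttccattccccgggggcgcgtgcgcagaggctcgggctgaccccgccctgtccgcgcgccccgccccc
Mog (chr17:37023399-37023648, minus strand): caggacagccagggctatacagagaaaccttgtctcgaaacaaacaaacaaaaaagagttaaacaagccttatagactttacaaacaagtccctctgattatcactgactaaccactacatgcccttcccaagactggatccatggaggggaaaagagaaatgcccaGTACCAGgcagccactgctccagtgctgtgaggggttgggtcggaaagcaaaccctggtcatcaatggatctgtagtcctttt
Tspan2 (chr3:102734520-102734769, plus strand): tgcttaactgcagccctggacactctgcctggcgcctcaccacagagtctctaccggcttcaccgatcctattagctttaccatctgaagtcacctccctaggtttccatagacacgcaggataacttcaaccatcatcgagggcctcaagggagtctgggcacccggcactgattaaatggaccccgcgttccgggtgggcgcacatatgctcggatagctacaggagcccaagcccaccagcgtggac

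SOX-type letters were present in 3 of the 8 windows (37.5%), those of Mag, Mobp and Cnp, against 24% of all 32851 RefSeq windows of the same length. The Mobp window held 6 of them, all as CTTTGT, the opposite strand of ACAAAG, while those of Mag and Cnp held 1 each. MYRF-type letters were present in 3 windows (37.5%), those of Mag, Mog and Cnp, with 1 match each, against 5.93% of all windows. E-box letters were present in 3 of the 8 windows (37.5%), those of Cnp, Tspan2 and Ugt8a, against 66.2% of all windows. The genes differed in how many CG dinucleotides, the letters that DNA methyltransferases act on, the same 250 bases held. Ugt8a had 32, Cldn11 19, Cnp 13, Tspan2 12, Mal 7, Mobp 4, Mag 3 and Mog 2, against a median of 6 and quartiles of 2 and 16 over all windows. Genes on both sides of that median were among those that rose in KO cells. The letters describe these windows only; neither binding nor DNA methylation was measured on these arrays.

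Dnmt3a itself gave less signal with KO RNA on each of the 6 arrays, with a log2 ratio of -1.38 ± 0.14 in differentiating cells (SD, n = 2) and -0.96 ± 0.22 in proliferating cells (SD, n = 4); whether this probe lies in the deleted part is unstated in the labels. Nes and Sox2, the stem cell markers that the labels name, were well above background in all 12 RNA samples. On proliferating replicates 3 and 4, sex-linked genes were unequal between the KO and WT samples: the log2 KO over WT ratio of Xist was -1.41 and -2.28 and that of Eif2s3y 4.22 and 5.56, whereas on the other 4 arrays both lay between -0.81 and 0.09. Per channel, 52.3% to 59.1% of gene spots exceeded background clearly, and no used probe of the 9 genes was saturated. All 4 proliferating arrays carried one slide and scan label and both differentiating arrays another, so that for levels compared between conditions slide and condition cannot be told apart, while KO and WT shared each array. Nothing in the sources says which samples came from separate animals beyond the words biological replicate, and p-values measure the spread between these samples.

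The first comparison asked how the loss of Dnmt3a changed the myelin genes in differentiating cells. Signal of each of the 8 genes other than Mog was higher in KO than in WT cells on both arrays (so for 30.4% of all genes tested). Mog was higher too, but the filter chose it by its KO samples. By limma's test at an adjusted p under 0.05, 6 genes rose: Mag, Mobp, Cnp, Cldn11, Mal and Tspan2. In the same comparison 3.08% of the 18062 genes passed, 2.18% with higher and 0.902% with lower signal in KO cells. The median log2 KO over WT ratio of the 9 genes was 3.06, and 3.17 without Mog, beside -0.01 for all genes tested. The ratios of the 6 genes that passed lay between 2.06 and 3.54, which is 4.17-fold to 11.6-fold. Log2 ratios are given as mean ± SD over arrays, and adjusted p-values are Benjamini-Hochberg values over all genes tested in limma.

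Among the proteins of compact myelin, Mbp, the basic protein that holds the cytoplasmic faces of the membrane together, had log2 signals of 15.19 and 14.61 in KO differentiating cells, against 12.43 and 10.80 in WT differentiating cells. The 2 groups did not overlap, but the KO over WT ratio of 3.28 ± 0.74 (SD, n = 2) did not pass (adjusted p = 0.0769 in limma). Mobp, a small basic protein found beside Mbp, had log2 signals of 10.28 and 9.72 in KO cells, against 7.17 and 6.70 in WT cells, where 1 of the 2 samples was well above background. Its ratio was 3.06 ± 0.07 (SD, n = 2; adjusted p = 0.0129 in limma), with 3.11 and 3.02 on the 2 arrays. The probe behind the Mobp values was the brightest of 3 through its KO signals, and the other probes gave lower ratios of 1.15 and 1.35.

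Of the proteins that lie outside compact myelin, Mag, an adhesion receptor on the membrane that faces the axon, had log2 signals of 14.33 and 14.56 in KO differentiating cells, against 11.35 and 10.80 in WT differentiating cells. It rose 10.3-fold in KO cells, with a log2 ratio of 3.37 ± 0.55 (SD, n = 2; adjusted p = 0.0342 in limma). Without proliferating replicate 2, which lends its spread to the fit, that p was 0.0645, and with no filter on dim probes 0.0601. Cnp, the cyclic nucleotide phosphodiesterase of the cytoplasmic channels of myelin, had log2 signals of 14.90 and 14.37 in KO cells, against 12.66 and 12.20 in WT cells, which were also well above background. Its 2 arrays lay close together, at log2 ratios of 2.24 and 2.17 (adjusted p = 0.0108 in limma), a 4.61-fold difference. Mog, an immunoglobulin-type protein of the outermost myelin surface, had log2 signals of 7.28 and 6.61 in KO cells, against 6.16 and 6.34 in WT cells. Mog was not well above background in any WT sample, so the size of its ratio is uncertain. Its log2 ratio was 0.70 ± 0.60 (SD, n = 2), or 1.62-fold, with 1.12 and 0.27 on the 2 arrays, and did not pass (adjusted p = 0.0766 in limma).

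Cldn11, the claudin that forms the tight junctions between myelin layers, had log2 signals of 11.96 and 12.37 in KO differentiating cells, against 9.14 and 8.46 in WT differentiating cells. It rose by a log2 ratio of 3.36 ± 0.77 (SD, n = 2; adjusted p = 0.0197 in limma). Mal, a membrane protein of lipid-rich domains, had log2 signals of 9.0 and 8.55 in KO cells, against 6.76 and 6.67 in WT cells, where 1 of the 2 samples was well above background. Its ratio was 2.06 ± 0.25 (SD, n = 2; adjusted p = 0.0108 in limma). Tspan2, a tetraspanin of oligodendrocyte membranes, showed the largest ratio of the 9 genes at this setting, with log2 signals of 11.63 and 11.48 in KO cells, against 7.99 and 8.05 in WT cells. Its log2 ratio of 3.54 ± 0.15 (SD, n = 2; adjusted p = 0.0129 in limma) is 11.6-fold. For the lipid part of myelin, Ugt8a, the enzyme that makes galactosylceramide, had log2 signals of 11.15 and 11.00 in KO cells, against 9.27 and 8.35 in WT cells. The groups did not overlap, but the ratio of 2.27 ± 0.54 (SD, n = 2) did not pass (adjusted p = 0.0758 in limma).

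The same order of groups held across the set: each of the 9 genes had every KO differentiating signal above every WT differentiating signal, which was so for 17.3% of all genes tested and which for Mog followed from the filter. With 2 arrays, the calls rested on the spread of all 6: without either differentiating array 0 genes passed, members included, by limma (1297 and 1862 at an unadjusted p under 0.05), while the lone array still gave a ratio above 0 for all 9. The fitted log2 ratio of Mag was 4.49 without the first differentiating array and 2.24 without the second. These fits take the dye effect from the proliferating arrays, and the remaining array itself gave 3.75 and 2.98. Ratios of dim genes also moved with the background correction. With Agilent's processed signals the log2 ratio of Mobp was 4.87, that of Mal 3.66 and that of Mog 1.71.

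**Figure D1:**
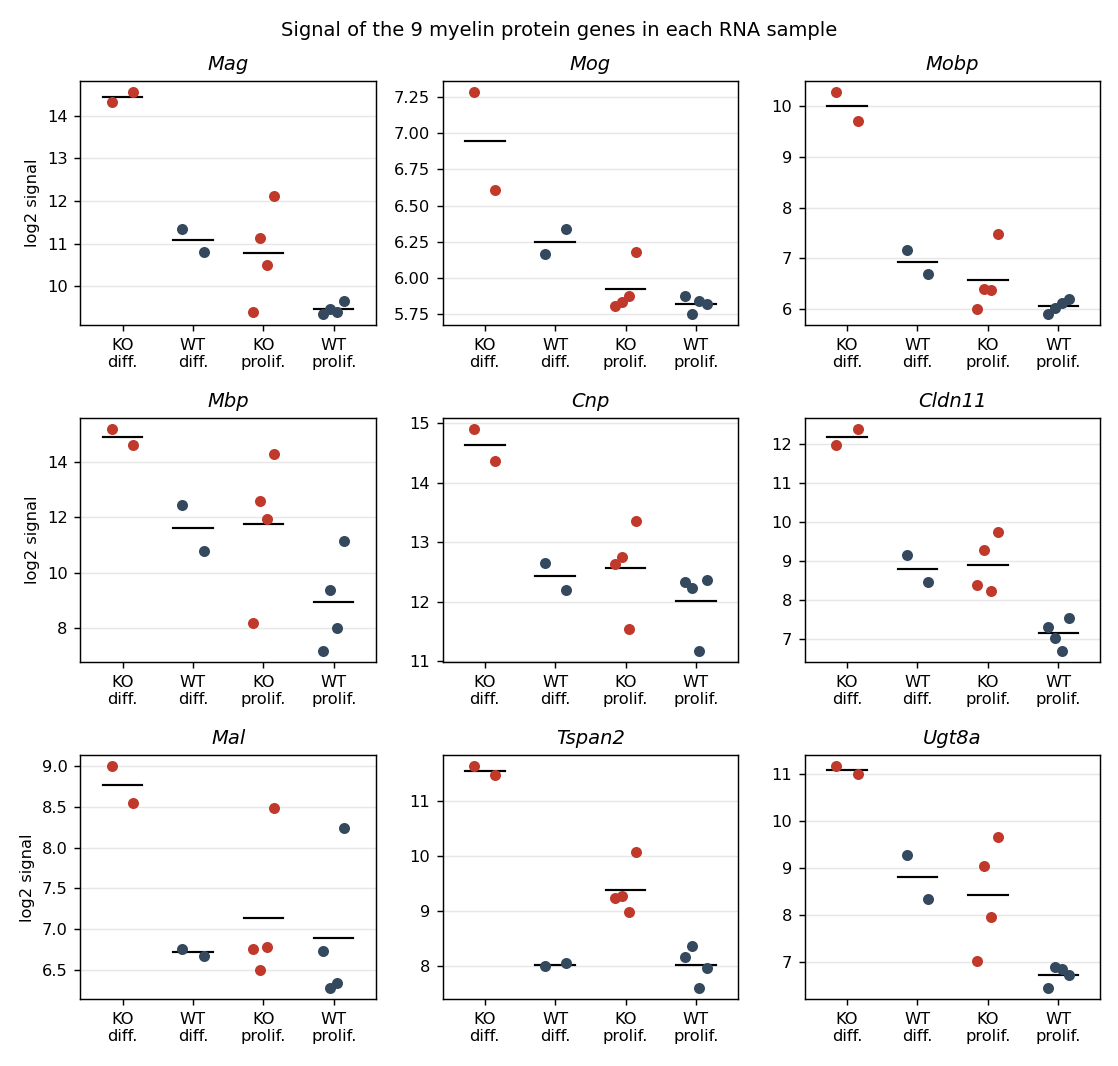
Log2 signal (vertical axes, a separate scale for each gene) of the 9 myelin genes in every RNA sample, with KO samples in red and WT samples in dark blue, 2 samples per genotype in differentiating and 4 in proliferating cells; lines are group means. In differentiating cells both KO samples lie above both WT samples for all 9 genes (so for 17.3% of all genes tested), which for Mog the filter favoured. In proliferating cells the KO and WT samples overlap for 6 of the 9. All KO samples lie above all WT samples there for the other 3 (so for 1.73% of all genes tested).

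In proliferating cells, where the same genotypes were compared in the presence of mitogens, none of the 9 genes passed (0 of 9, against 0.952% of all genes tested, 0.615% upward). Their mean ratios were above 0 for all 9, against 47.9% of all genes tested, with a median log2 ratio of 1.32 beside -0.01 for all genes. An unadjusted p under 0.05 in limma was found for 7, against 16.0% of all genes. The ratio was above 0 on all 4 arrays for 8 genes (9.84% of all genes tested), Mog being the exception with -0.07 on replicate 1.

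Mbp had the highest ratio, with log2 values of 1.01, 3.21, 3.93 and 3.15 on replicates 1 to 4, a mean of 2.82 ± 1.26 (SD, n = 4; adjusted p = 0.0796 in limma). The Mbp probe is spotted 10 times on the array. Within each array the SD over its usable spots was between 0.05 and 0.11 on the log2 scale, far below the spread between the arrays. Log2 signals of Mbp in proliferating KO cells ran over 8.16, 12.58, 11.94 and 14.29 in replicates 1 to 4, against 7.15, 9.37, 8.01 and 11.14 in WT cells. Replicate 1 was low and replicate 4 high in both genotypes, and the groups overlapped. Without replicate 1 the log2 ratio was 3.58 and Mbp passed (adjusted p = 0.00477 in limma).

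Cldn11, Tspan2 and Ugt8a were the 3 genes whose KO and WT samples did not overlap in proliferating cells, an arrangement seen in 1.73% of all genes tested. The log2 ratio of Cldn11 was 1.05, 2.24, 1.55 and 2.19 on replicates 1 to 4, with a mean of 1.76 ± 0.57 (SD, n = 4; adjusted p = 0.0585 in limma). That of Tspan2 was 1.07, 0.91, 1.38 and 2.11, with a mean of 1.37 ± 0.53 (SD, n = 4; adjusted p = 0.0544 in limma). Both thus lay just outside the threshold, and passed with no dye term and with median centring in place of loess. Ugt8a had ratios of 0.57, 2.14, 1.11 and 2.92 and a mean of 1.68 ± 1.05 (SD, n = 4; adjusted p = 0.108 in limma).

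Mag had ratios of 0.04, 1.65, 1.12 and 2.46, so that KO and WT cells hardly differed on replicate 1 and differed most on replicate 4; its mean was 1.32 ± 1.01 (SD, n = 4; adjusted p = 0.162 in limma). The mean log2 ratio of Cnp was 0.55 ± 0.31 (SD, n = 4; adjusted p = 0.0921 in limma) and that of Mal 0.24 ± 0.17 (SD, n = 4; adjusted p = 0.316 in limma). Mobp was well above background in 1 of 4 KO samples and in no WT sample. Its log2 ratios were 0.11, 0.37, 0.25 and 1.28 on replicates 1 to 4, with a mean of 0.50 ± 0.53 (SD, n = 4; adjusted p = 0.238 in limma). Mog was not well above background in any proliferating sample.

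The arrays differed from one another for the set as a whole. The median log2 ratio of the 9 genes was 0.31 on proliferating replicate 1, 0.91 on replicate 2, 1.11 on replicate 3 and 2.11 on replicate 4, while the median of all genes lay between -0.04 and 0.02 on these arrays. Replicate 1 had the lowest ratio for 8 of the 9 genes and replicate 4 the highest for 6. Replicates 3 and 4 are those with unequal sex-linked genes, whose part in these ratios was not tested. Without both, the median log2 ratio of the 9 genes in proliferating cells was 0.85, and again 0 of 9 passed in limma, where 214 genes did.

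**Figure D2:**
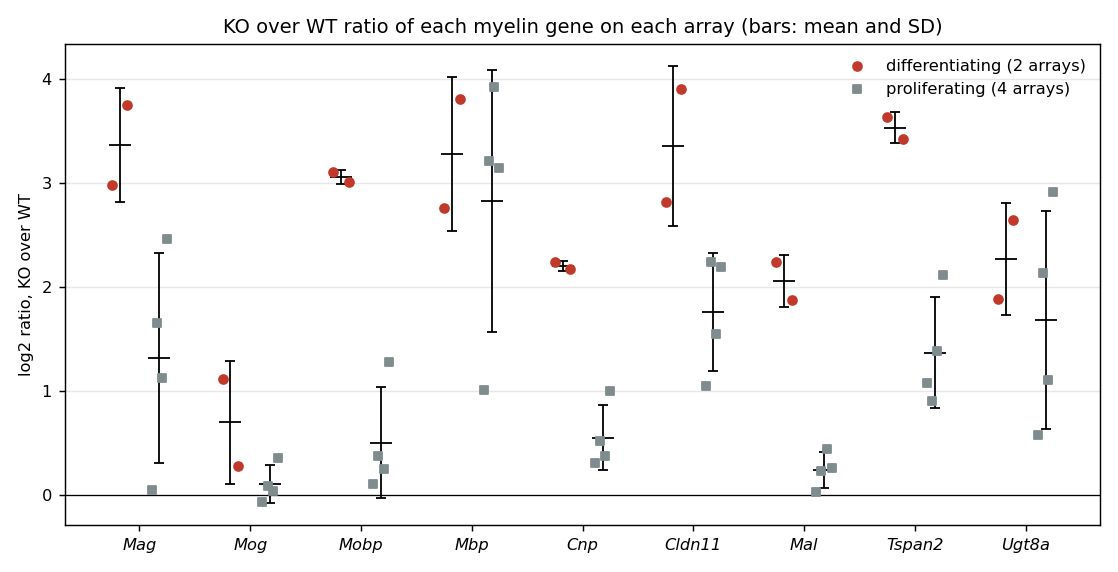
Log2 KO over WT ratio (vertical axis) of each of the 9 genes on each array, with the 2 differentiating arrays as circles on the left and the 4 proliferating arrays as squares on the right of each gene; bars give the mean and SD. Both circles lie above all squares for Mag, Mobp, Cnp, Cldn11, Mal and Tspan2. For Mbp and Ugt8a they lie among the squares, and for Mog 1 circle lies below the highest square. The share of all genes with such an order was not taken, so this is a description only. In the test of the difference between the conditions 0 of 9 passed.

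The difference between the KO effect in differentiating and in proliferating cells was tested directly. It was above 0 for each of the 8 genes other than Mog, against 48.7% of all genes tested (median log2 difference 1.74, and 1.66 with Mog, beside -0.01 for all genes). Mog was above 0 too, but the filter chose it by its differentiating KO samples. In this test 0 of 9 passed, where 0.0498% of all genes did. Of the 8 genes other than Mog, 6 had an unadjusted p under 0.05 in limma, against 12.1% of all genes. Mal came closest, at a log2 difference of 1.82 with a standard error of 0.17 (adjusted p = 0.0557 in limma), and passed when the dye term was left out (adjusted p = 0.0214). Cnp, at 1.66 with a standard error of 0.18 (adjusted p = 0.0864 in limma), and Mobp, at 2.56 with a standard error of 0.28 (adjusted p = 0.0886), followed. For Mbp the difference was 0.46 with a standard error of 0.85 (adjusted p = 0.897 in limma), and for Ugt8a 0.58 with a standard error of 0.58 (adjusted p = 0.775). For these 2 genes the mean ratios in differentiating cells, 3.28 and 2.27, stood close to those in proliferating cells, 2.82 and 1.68, but the wide errors do not show that the effects are equal.

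Levels within a genotype were compared between differentiating and proliferating cells in a fit of the separate channels. In KO cells 6 of the 8 genes other than Mog rose by limma's test, where 15.2% of the 18050 genes in that fit passed and 9.14% rose. Their median log2 change was 2.91, beside 0.05 for all genes. Mag rose by 3.66 with a standard error of 0.73 (adjusted p = 0.0126 in limma), Mobp by 3.43 with a standard error of 0.38 (adjusted p = 0.00154) and Cldn11 by 3.26 with a standard error of 0.56 (adjusted p = 0.00743). Ugt8a rose by 2.66, Tspan2 by 2.17 and Cnp by 2.06. The log2 change of Mog was 1.02 with a standard error of 0.21, and its size is uncertain, since no proliferating KO sample was well above background. Mog passed too, as the 7th gene, but the filter chose it by these same differentiating KO samples. Mbp and Mal did not pass: their log2 changes were 3.16 (adjusted p = 0.160 in limma) and 1.64 (adjusted p = 0.0536). Every differentiating KO signal lay above every proliferating one for all 9 genes, as it did for 25.0% of all genes tested; for Mog this again followed from the filter. The closest was Mal, at 9.0 and 8.55 in differentiating KO cells, against 6.75, 6.50, 6.78 and 8.49 in proliferating KO cells of replicates 1 to 4; the last of these stood alone, and so did the WT sample of the same array at 8.24. The calls in KO cells, Mog counted, depended on single arrays, since 1 member passed without proliferating replicate 1 (Mobp), 2 without replicate 2, 3 without replicate 3 and 8 without replicate 4, and 2 and 3 passed without differentiating replicates 1 and 2. Mobp passed in each of these fits.

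In WT cells none of the 9 genes passed between the same conditions (0 of 9, against 14.9% of all genes, 9.03% upward), with a median log2 change of 0.87, beside 0.05 for all genes. An unadjusted p under 0.05 in limma was found for 3 of the 9, a share close to the 31.8% of all genes. Groups did not overlap for Mag, Mobp, Cldn11 and Ugt8a (so for 23.8% of all genes tested); Mog was not well above background in any WT sample, and its order there was not read. Mag had log2 signals of 11.35 and 10.80 in differentiating WT cells, against 9.34, 9.47, 9.38 and 9.66 in proliferating WT cells, a change of 1.61 with a standard error of 0.73 (adjusted p = 0.163 in limma). Cldn11 changed by 1.65 with a standard error of 0.56 (adjusted p = 0.0745 in limma) and Ugt8a by 2.07 with a standard error of 0.73 (adjusted p = 0.0832), and both passed with Agilent's processed signals. Mobp was well above background in 1 of 2 differentiating WT samples and in no proliferating WT sample. It changed by 0.87 with a standard error of 0.38 (adjusted p = 0.149 in limma). Without proliferating replicate 4, Mobp and Ugt8a passed (adjusted p = 0.0186 and 0.0464), and without differentiating replicate 2 Cldn11 did (adjusted p = 0.0448). Mbp changed by 2.70 with a standard error of 1.44 (adjusted p = 0.229 in limma) and Cnp by 0.41 with a standard error of 0.40 (adjusted p = 0.520), and the samples of both overlapped between the conditions. Tspan2 stood at 7.99 and 8.05 in differentiating WT cells, against 8.16, 8.36, 7.59 and 7.96 in proliferating WT cells, a change of 0.00 with a standard error of 0.41. Mal changed by -0.18 with a standard error of 0.50 (adjusted p = 0.845 in limma), and its sign turned without proliferating replicate 4. The test of KO against WT in this change is the difference of KO effects given above, in which 0 of 9 passed.

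**Figure D3:**
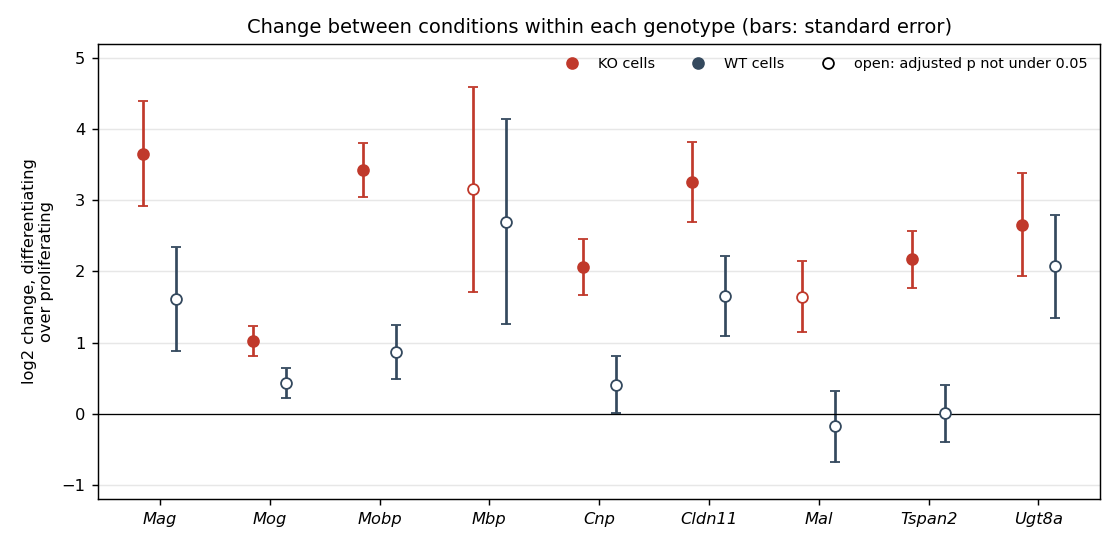
Log2 change of each gene from proliferating to differentiating cells (vertical axis, standard errors as bars), in KO cells on the left in red and in WT cells on the right in dark blue, filled where the adjusted p was under 0.05. In KO cells 7 of 9 genes are filled, Mog among them, and in WT cells none; the difference between the genotypes did not pass for any of the 9.

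Several genes are represented by more than 1 probe, and the values above are those of the brightest. Probes of a gene that were well above background pointed the same way in differentiating cells but differed in size. For Mobp, the probe with the accession AK083103 (chr9:119877278-119877337, build mm7, plus strand) gave the log2 ratio of 3.06 used above, and those of the RefSeq transcript NM_008614 gave 1.15 ± 0.04 and 1.35 ± 0.08 (SD, n = 2 each). In differentiating KO cells the Mobp probe used was the brightest of the 3 (mean log2 signal 10.00, against 8.72 and 8.77). In differentiating WT cells it was the dimmest (6.93, against 7.58 and 7.42). Its choice by brightness thus rested on the KO signals, which favoured a high ratio. For Mag (chr7:27838993-27839051, build mm7, minus strand) a dimmer probe gave 2.04 ± 0.12, and for Tspan2 (chr3:102566012-102566071, build mm7, plus strand) 1.53 ± 0.43 (SD, n = 2 each). For Mbp, the probe with the accession NM_001025245 gave 2.26 ± 0.85 and the other of NM_010777 2.06 ± 0.07, and for Mal the second probe gave 1.89 ± 0.17, close to the 2.06 of the first (SD, n = 2 each). For Ugt8a, the dimmer NM_011674 probe gave 1.00 ± 0.24 (SD, n = 2), and that of AK078371 was not well above background in any of the 12 samples. Cnp (chr11:100690342-100690401, plus strand), Cldn11 (chr3:30976006-30976065, plus strand) and Mog (chr17:35172002-35172061, minus strand; all build mm7) have 1 probe each. The exon of each probe was not looked up, since no annotation of build mm7 was used here. With the mean over all probes in place of the brightest, the log2 ratio of Mobp in differentiating cells was 1.85, that of Ugt8a 1.1 and that of Mbp 2.54, and Mbp then passed (adjusted p = 0.0469 in limma).

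The levels of the 9 genes were compared with each other across samples as a description. Over the 12 samples, which share arrays in pairs, the 36 pairs of genes had Pearson correlations of their log2 signals between 0.66 and 0.97, with a median of 0.85. Over the 6 KO over WT ratios the range was 0.11 to 0.999 and the median 0.79; the lowest was that of Mog with Mbp and the highest that of Mobp with Cnp. By correlation with the mean of the 9 genes over the 12 samples, the nearest genes outside the gene lists used here were Tmem151a (0.964), Myo1d (0.963), Erbb3 (0.961), Abca5 (0.954) and Rab7b (0.951). Their log2 KO over WT ratios in differentiating cells, in the same order, were 1.63, 2.08, 1.80, 0.92 and 2.55; they were chosen on the same 12 samples, so these values are a description.

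Other genes of mature oligodendrocytes and myelin showed the same sign with a smaller median ratio. Of 37 listed, 35 were tested. All 35 had a ratio above 0 in differentiating KO cells, against 48.3% of all genes tested, and their median was 0.91. Of the 35, 5 rose. These were Fa2h, the fatty acid 2-hydroxylase of myelin lipids (1.32 ± 0.16), the proteolipid Pllp (1.92 ± 0.02), the choline phosphodiesterase Enpp6 (1.66 ± 0.42), Bcas1, a marker of newly myelinating cells (2.40 ± 0.12), and the sphingosine phosphate receptor S1pr5 (1.06 ± 0.03; SD, n = 2 each; adjusted p between 0.0211 and 0.0441 in limma). Ermn and Klk6, genes of late oligodendrocytes, were not well above background in any differentiating sample. In proliferating cells 1 of the 35 rose, Bcas1, at 2.07 ± 1.09 (SD, n = 4; adjusted p = 0.0462 in limma).

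Of 14 enzymes of galactolipid and sphingolipid metabolism beside Ugt8a, 2 rose in differentiating KO cells (median log2 ratio 0.26): Fa2h, given above, and the fatty acid elongase Elovl7 at 1.63 ± 0.23 (SD, n = 2; adjusted p = 0.0232 in limma), which also rose in proliferating KO cells at 1.37 ± 0.36 (SD, n = 4; adjusted p = 0.0248). Of 12 transcription factors of oligodendrocyte differentiation, Sox10, which activates myelin genes, was the only one that rose in differentiating KO cells, at 2.19 ± 0.06 (SD, n = 2; adjusted p = 0.0170 in limma), and the median of the list was 0.09. In proliferating KO cells Sox10 and Nkx2-2 rose. Nkx2-2, a homeodomain factor of the lineage, had a ratio of 1.89 ± 0.11 in differentiating cells (SD, n = 2; adjusted p = 0.0516 in limma) and 1.95 ± 0.70 in proliferating cells (SD, n = 4; adjusted p = 0.0358). Nkx6-2, named after its values were seen, had a ratio of 2.20 ± 0.02 in differentiating cells (SD, n = 2; adjusted p = 0.113 in limma). Olig2 had a log2 ratio of -0.70 (adjusted p = 0.0777) and Olig1 of -0.34 (adjusted p = 0.623) in differentiating cells. Myrf, the membrane-bound factor that drives myelin gene expression, had a ratio of -0.00 ± 0.06 in differentiating cells (SD, n = 2; adjusted p = 0.993 in limma) and 0.01 ± 0.16 in proliferating cells (SD, n = 4; adjusted p = 0.980). Its probe was dim, well above background in 1 of 2 KO and 1 of 2 WT differentiating samples, so that these ratios set no limit on a change of Myrf. Of 11 inhibitors of oligodendrocyte differentiation tested, 1 rose in differentiating KO cells, the ligand Bmp4 at 2.65 ± 0.06 (SD, n = 2; adjusted p = 0.0334 in limma), and 1 in proliferating KO cells, Gpr17.

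Of 11 precursor markers, 2 rose in differentiating KO cells, Matn4 at 2.21 ± 0.51 and C1ql1 at 0.97 ± 0.64 (SD, n = 2 each; adjusted p = 0.0285 and 0.0465 in limma), and the median of the list was 0.01. Gpr17, a receptor of cells about to mature, had a ratio of 0.88 ± 0.31 (SD, n = 2; adjusted p = 0.130 in limma), Pdgfra of -0.38 (adjusted p = 0.843) and Cspg4 of 0.83 (adjusted p = 0.388) in differentiating cells. In proliferating KO cells 2 of the 11 precursor markers rose, Gpr17 at 2.35 ± 0.40 and Matn4 at 2.06 ± 0.79 (SD, n = 4 each, adjusted p = 0.0129 and 0.0248 in limma). There 10 of the 11 had a ratio above 0, against 47.9% of all genes tested, with a median of 0.45. Pdgfra had a ratio of 1.32 there (adjusted p = 0.248 in limma) and Cspg4 of 0.55 (adjusted p = 0.428). Schwann cells, the myelinating cells of peripheral nerve, share Mag, Mbp, Cnp and Mal with oligodendrocytes. Of 6 Schwann cell markers tested, none rose in differentiating KO cells by limma (0 of 6, 0 at an unadjusted p under 0.05), and the summed signal of the 10 listed markers was 1218 to 3663 in KO cells and 1112 to 1774 in WT cells. Pmp2, Ncmap, Mlip, Cdh19 and Scn7a of that list were not well above background in any differentiating sample. In proliferating KO cells 1 of the 6 rose, Dhh, at 3.64 ± 1.06 (SD, n = 4; adjusted p = 0.0276 in limma), and the summed signal of the list there was 3230 to 22491 in KO cells and 1204 to 2023 in WT cells; the part of this in the ratios of the myelin genes was not tested.

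Markers of the other cell types that these cultures form also moved in differentiating KO cells. Of 10 astrocyte markers, 2 rose (Aqp4 at 2.91 ± 0.11 and Gjb6 at 1.23 ± 0.25, SD, n = 2 each, adjusted p = 0.00771 and 0.0421 in limma) and none fell. A ratio above 0 was seen for 7 of the 10, against 48.3% of all genes tested. The 10 astrocyte markers had a median of 0.73 and a range of -0.96 (Slc1a3) to 2.91. Their summed signals were 178731 to 236888 in KO cells and 156951 to 184460 in WT cells. Of 10 neuron markers, 5 fell (Tubb3, Syt1, Snap25, Map2 and Rbfox3), with summed signals of 9769 to 11337 in KO cells and 24261 to 25793 in WT cells. The summed signal of the 9 myelin genes was 81733 to 99788 in differentiating KO cells and 9507 to 16340 in WT cells. The part of these shifts in cell types in the ratios of the myelin genes was not tested. Of 10 microglia markers, 8 were not well above background in any differentiating sample, among them Cx3cr1, Csf1r and Aif1. Of 6 markers of T cells and kidney epithelium, other sites of Mal expression, Cd3g, Cd8a, Umod and Slc12a1 were not well above background in any differentiating sample. Cd3e and Cd4 were so in differentiating samples of both genotypes. Of the 3 markers tested, 0 passed between differentiating KO and WT cells by limma. Cd3e rose from proliferating to differentiating cells in both genotypes. Of the 6 endothelial and mural and 5 fibroblast and meningeal markers tested, none passed in differentiating cells by limma (1 and 2 at an unadjusted p under 0.05).

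**Figure D4:**
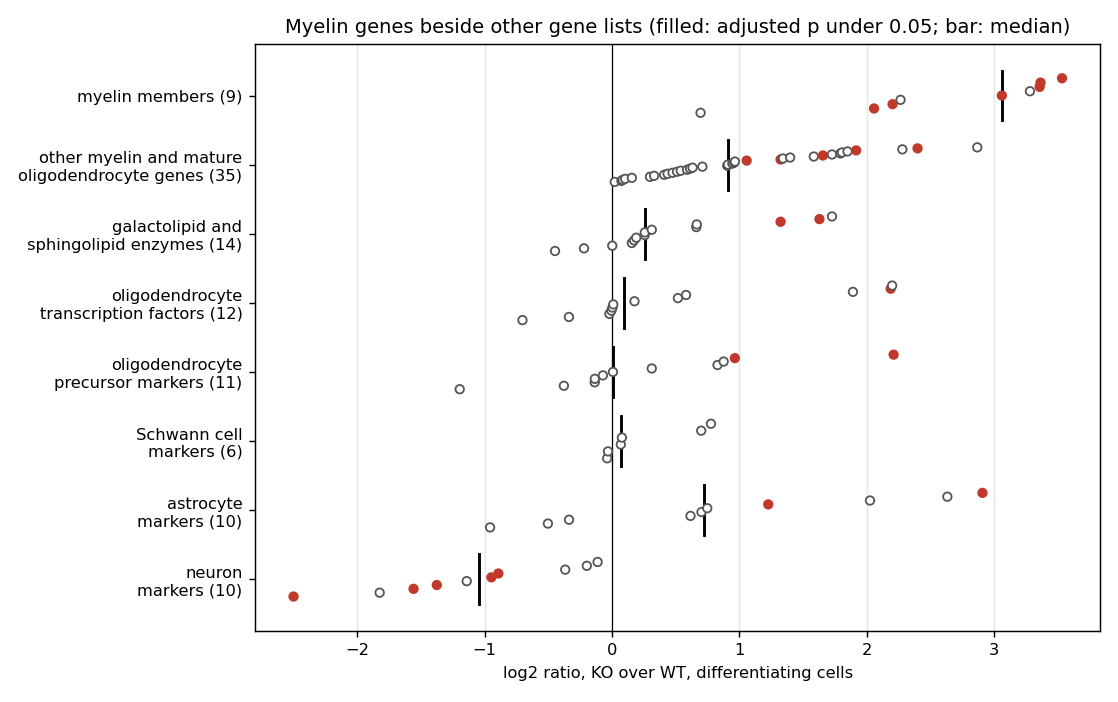
Log2 KO over WT ratio in differentiating cells (horizontal axis) of each gene tested in the myelin set and in 7 other lists, with the number of genes in parentheses; filled points had an adjusted p under 0.05 and bars are medians. The 9 myelin genes have a median of 3.06 and the 35 other oligodendrocyte genes one of 0.91, while the neuron markers lie below 0.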

How the data were processed

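Spot intensity values (mean signal, median local background) and processed signals were deposited by the authors as output of Agilent Feature Extraction 9.5.1.1, per the file headers, with probe positions on build mm7. The authors' deposited log10 ratio sets Cy5 over Cy3; their value table holds it turned to KO over WT with column medians of 0, and was used as a check only.

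Background was corrected in R 4.3.3 with limma 3.58.1 (normexp with an offset of 50) and signals were normalized by loess within arrays, without control and outlier spots. Repeat spots were averaged. The brightest probe of a gene entered the test if either channel was well above background on 2 or more of the 6 arrays. The fit took the KO over WT ratios of the 6 arrays together, with a coefficient for each condition and a dye effect (KO in Cy5 on proliferating 1 and 3 and differentiating 2). Channels were fitted after Aquantile (intraspot correlation 0.764). Tests are 2-sided with Benjamini-Hochberg adjustment; the code was tested on simulated data. The members and lists were chosen with earlier results of these data known. All 9 members were named, and from other lists at most 6 that passed plus a set of lineage genes. Some genes of these lists are not reported here by name. The alternatives were the background correction, normalization, dye term, dim filter, probe choice, arrays left out and a replicate block. The number of arrays limits the precision.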

Additional observations from a re-analysis of the deposited data

Results flagged for a closer look

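In sets of 4 proliferating samples, 1 sample was checked for a gap to the others that is large against the range of the group (Dixon's test at its 95% critical value for 4 samples). Of 27 sets checked, 2 were past it, and chance gives about 1 in 20. The log2 signal of Mal in proliferating KO cells of replicate 4 was 8.49, against 6.50 to 6.78 in the other 3 KO samples. The log2 signal of Cnp in proliferating WT cells of replicate 3 was 11.17, against 12.23 to 12.36 in the other 3 WT samples.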

How the results depend on the processing

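In differentiating cells the 9 genes kept a ratio above 0 under all 13 alternatives, which for Mog the filter favoured. Of 117 values, 95 stayed on their side of the threshold, 14 lost and 8 gained a call. The 6 members called became 8 without proliferating replicates 3 and 4 (970 genes called) and with the differentiating arrays alone and no dye term (1586 genes). Median centring called 285 of all genes in place of 557, and leaving out single arrays called 0 to 534 genes and 0 to 7 members. In proliferating cells Agilent's processed signals called 278 genes and 4 members (Mbp, Cldn11, Tspan2, Ugt8a), median centring 2 members, no dye term 3 and the mean over probes 1, with 0 as reported; no dim filter called 101 genes in place of 172, the proliferating arrays alone 0 (2275 at an unadjusted p under 0.05 in limma), and single arrays left out 0 to 171 genes and 0 to 1 member. The sign of Mog turned with median centring (-0.0030). For the difference of KO effects 9 genes were called as reported, 72 with processed signals, 24 with no dye term (1 member, Mal), 4 with the mean over probes, and 0 with median centring, no dim filter, without replicates 3 and 4, with the replicate block (which leaves out the dye term too) and without any single array (920 to 2865 genes at an unadjusted p under 0.05 in limma in these fits). Ugt8a turned to -0.042 with processed signals, and single arrays left out gave it -0.64 to 1.81 (below 0 without differentiating replicate 2) and Mbp -0.42 to 1.34 (-0.29 without proliferating replicate 1). Within KO cells 2750 genes and 7 members were called as reported, or 6 members without Mog, which the filter chose by these samples. Single arrays left out there gave 293 to 4719 genes and 1 to 8 members, Mog counted. Leaving out proliferating replicates 3 and 4 gave 1244 genes and 4 members in KO cells. Within WT cells, with 2693 genes and 0 members as reported, processed signals called 2 members, no dye term 1, the mean over probes 1, single arrays left out 209 to 3821 genes and 0 to 2 members, and leaving out replicates 3 and 4 1003 genes. Tspan2 within WT cells turned to -0.0020 with processed signals, -0.15 with quantile normalization, -0.25 without replicates 3 and 4, and lay at -0.17 to 0.16 over single arrays left out (below 0 without proliferating replicate 3 or 4 or differentiating replicate 1). Mal there lay at -0.40 to 0.25 over single arrays left out (above 0 without proliferating replicate 4) and turned to 0.15 without replicates 3 and 4. The causes of these changes were not tested. Same-numbered arrays share a number in the labels, and whether they are paired is not stated. Their deviations correlated at -0.37 and -0.29. This cannot show whether they are paired, since their dyes are opposite and the deviations of the 2 differentiating arrays mirror each other. With the replicate block and no dye term, since both together leave no residual degrees of freedom, the difference of KO effects had a member median of 1.79 and 0 calls. With the block added to the channel fits, KO cells had 1768 genes and 6 members and WT cells 1468 genes and 0 members, with Tspan2 at -0.050 and Mal at 0.27; in the channel fits the intraspot correlation was taken from the fit without the block. Slide and scan could not be fitted as a block, since each holds 1 condition. Dim signals limit Mog, Mobp and Mal.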

Other observations

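The 2 differentiating arrays agreed more closely for some of the 9 genes than for others, and 1 of the 2 was not the higher for all. The SD of the log2 KO over WT ratio over both arrays was 0.05 for Cnp, 0.07 for Mobp, 0.15 for Tspan2 and 0.25 for Mal, and 0.54 for Ugt8a, 0.55 for Mag, 0.60 for Mog, 0.74 for Mbp and 0.77 for Cldn11. Mag, Mbp, Cldn11 and Ugt8a had the higher ratio on replicate 2, where KO RNA carried Cy5, and the other 5 genes on replicate 1, where it carried Cy3.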
